A study of Mus musculus with 8 samples.

Results

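The chemokine ligands of mouse lung stroma are described here through 45 Ensembl genes, of 49671 in the deposited count table, whose symbol in the authors' table is Ccl, Cxcl, Cx3cl or Xcl followed by a number and at most 1 letter. These genes carry 39 distinct symbols, because Ccl19, Ccl21a, Ccl21b and Ccl27a are each present as several near-identical copies. Chemokines are small secreted proteins that draw leukocytes along a concentration gradient, and each is read by G protein-coupled receptors on the responding cell. They are classed as CC, CXC, CX3C or XC by the spacing of the first conserved cysteines, and gene names follow these classes. In lung, fibroblasts, epithelium, endothelium and macrophages each make their own sets. Homeostatic members such as Cxcl12 hold cells in place, whereas inflammatory members such as Cxcl1 and Ccl2 are induced through NF-kB and recruit neutrophils and monocytes.

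The libraries came from reporter-positive cells sorted from whole adult mouse lung. Of the 8 mice, 4 were Gli2creERT2-tdt:R26RYFP/SmoM2 and 4 were Gli2creERT2-tdt:R26RYFP controls, so every animal carried the Gli2-driven, tamoxifen-inducible Cre and the Cre-dependent yellow fluorescent reporter, and the SmoM2 allele, an active form of the Hedgehog transducer Smoothened, set the groups apart. By design, recombination and sorting were meant to be limited to cells in which the Gli2 locus is active. Transcripts of other cells were also present in the libraries, as given below. Per the labels' protocols the SmoM2 mice received tamoxifen intraperitoneally on 5 days, 200 mg per kg each day. The dosing of the controls is not given in the sources used here. Tissue was digested enzymatically for 45 min at 37 °C before the sort. Columns of the count table are numbered 1 to 4 within a group without naming the animal, and libraries are called by group and number.

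The estimated counts of a library totalled 91.6 to 111.6 M units, which corresponds to 18.3 to 22.3 M fragments if 5 units stand for 1 fragment. Fibroblast markers were abundant, with Pdgfra at 1763 to 2112 CPM, the count scaled to library size, in SmoM2 libraries and 1345 to 2042 CPM in controls. The Hedgehog target Gli1 averaged 101 CPM in SmoM2 libraries and 99.3 CPM in controls (log2 fold change 0.03, 95% interval -0.54 to 0.60). Because Gli1 did not separate the groups, the libraries are called SmoM2-labelled below. Transcripts of other cells were present: the summed level of 15 macrophage and monocyte markers lay between 496 and 1684 CPM in SmoM2-labelled libraries and between 556 and 696 CPM in controls, and that of 10 epithelial markers between 222 and 954 CPM in SmoM2-labelled libraries and between 308 and 1533 CPM in controls. These were bulk libraries, in which more cells of a type and more RNA per cell cannot be told apart.

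Chemokine ligand transcripts summed to 1161, 1106, 801 and 1469 CPM in SmoM2-labelled libraries 1 to 4, against 868, 1092, 1586 and 769.8 CPM in controls 1 to 4. The groups overlapped, and the highest and lowest sums were both in controls. A mean of at least 10 CPM over the 8 libraries was reached by 14 of the 45 genes, 13 lay between 1 and 10 CPM, and 18 were under 1 CPM. Cxcl14 and Cxcl1 were the most abundant. Cxcl14 alone supplied 24.9% to 48.5% of the summed level in the SmoM2-labelled libraries and 28.6% to 43.1% in controls.

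**Figure D1:**
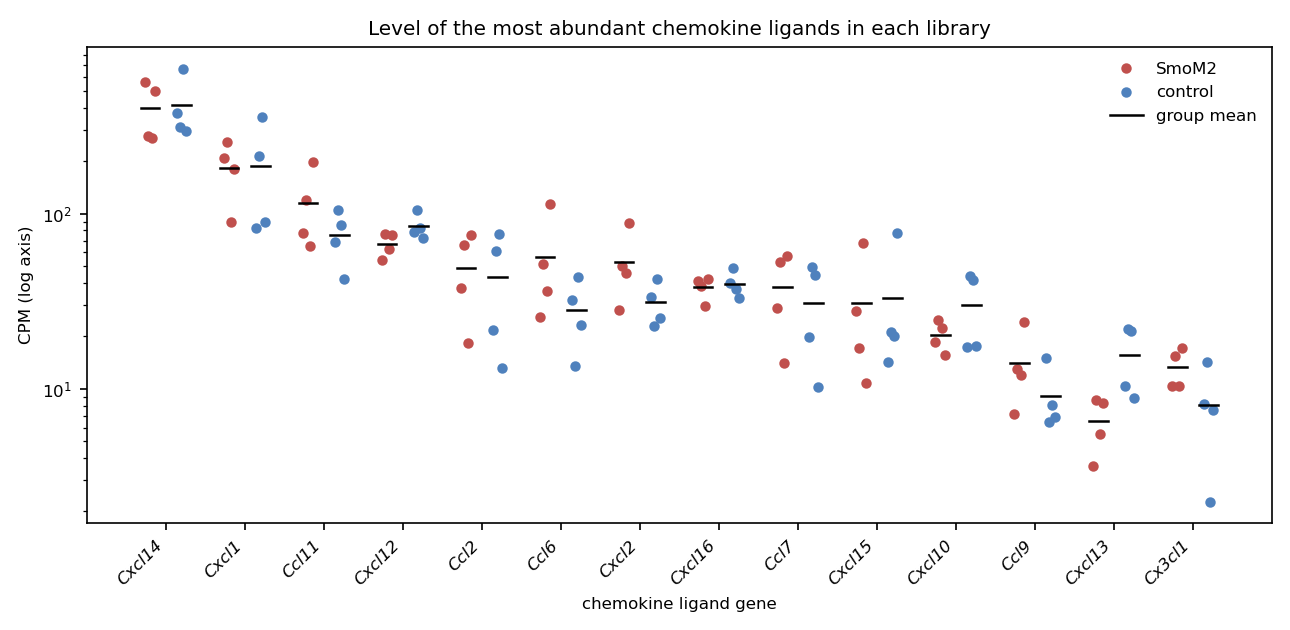
Level of the 14 chemokine ligands averaging 10 CPM or more, on a log axis in CPM, with SmoM2-labelled libraries (red, left) and control libraries (blue, right), 4 points each and a black line at the group mean. The groups overlap for 13 of the genes shown, and Cxcl13 is the exception, at 3.63 to 8.62 CPM in SmoM2-labelled libraries and 8.85 to 21.9 CPM in controls.

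Levels can be compared between genes only per length, and this was done as CPM per kb of merged exons in the GENCODE M21 annotation of mm10. On that scale Cxcl14 stood at a mean of 223 CPM per kb over the 8 libraries, Cxcl1 at 98.1, Ccl11 at 87.8, Ccl7 at 43.2 and Ccl2 at 40.6. Ccl7 and Ccl2 differed by far less than either varied between mice. Cxcl12 was at 9.29 CPM per kb because its merged exons span 8176 bp, close to Cxcl13 at 9.63.

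Between SmoM2-labelled and control libraries no chemokine ligand passed the test. edgeR's quasi-likelihood test with Benjamini-Hochberg adjustment over all 20162 genes tested called 0 of the 41 ligand genes that passed the expression filter, and it called 0% of all genes. The 41 are not all members, since 4 (Ccl20, Ccl26, Cxcl11 and the Ccl21b copy ENSMUSG00000095675) were too low to be tested. The smallest adjusted p among the 41 was 0.999916. Of the log2 fold changes (SmoM2-labelled over control), 18 were above 0 and 23 below, and over all genes 49% were above 0. Their median was -0.07 beside -0.00 for all genes tested. DESeq2 also called 0 of the 43 ligands it tested, where it called 0.285% of all genes, and the authors' deposited table has 0 of the 45 with an adjusted p under 0.05, where it calls 0.0498% of its genes.

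At an unadjusted p under 0.05, edgeR counted 4 of the 41 ligand genes, against 3.75% of all genes. Cxcl3 was the 1 that was higher in SmoM2-labelled libraries, against 1.74% of all genes, and Cxcl13 and 2 rows of the Ccl21 copies were the 3 that were lower, against 2.01%. DESeq2 counted 6 at that level, the same 4 with Ccl6 and Cxcl2. How many of all genes DESeq2 counts at that level was not worked out, so its 6 has no background beside it. The groups did not overlap for 2 of the 41, Cxcl13 and the Ccl19 copy ENSMUSG00000094661, against 2.44% of all genes. Both shares rest on few genes, and the Ccl21 copies may share reads.

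**Figure D2:**
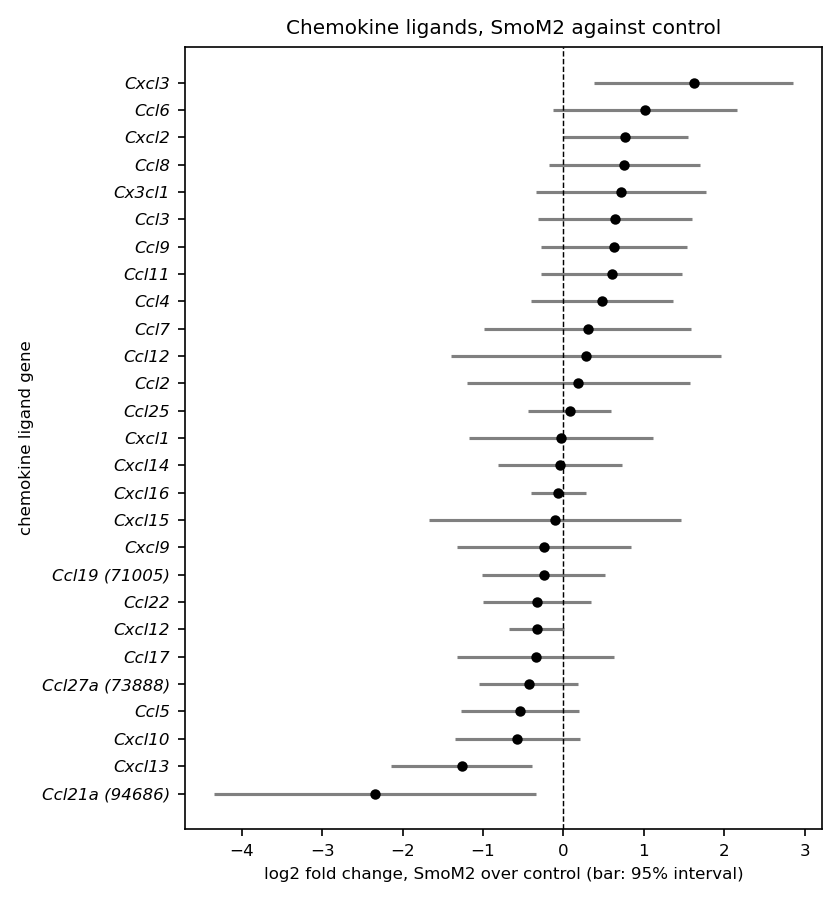
Log2 fold change, SmoM2-labelled over control, of the 27 chemokine ligands averaging 1 CPM or more, with 95% intervals from edgeR's quasi-likelihood fit (4 libraries per group). Intervals of Cxcl3, Cxcl13 and Ccl21a leave out 0 before adjustment, none is called after adjustment, and those of Ccl2, Ccl7, Cxcl1 and Cxcl15 each reach above 1 and to about -1 or below.

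The ligands varied widely between mice of the same group. The SD of log2 CPM around the group means had a median of 0.64 over the 14 ligands with at least 10 CPM, beside 0.18 over the 9617 genes at that level, and all 14 were above the median of those genes. The highest library stood a median of 3.25 times above the lowest within the more variable group, beside 1.40 times over all genes at that level. The spread was not shared evenly. Cxcl12 and Cxcl16 had the smallest SD of the 14, at 0.23 each, and Cxcl15, Ccl2 and Ccl7 the largest, at 1.10, 1.08 and 1.01. No test was made of these spreads.

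**Figure D3:**
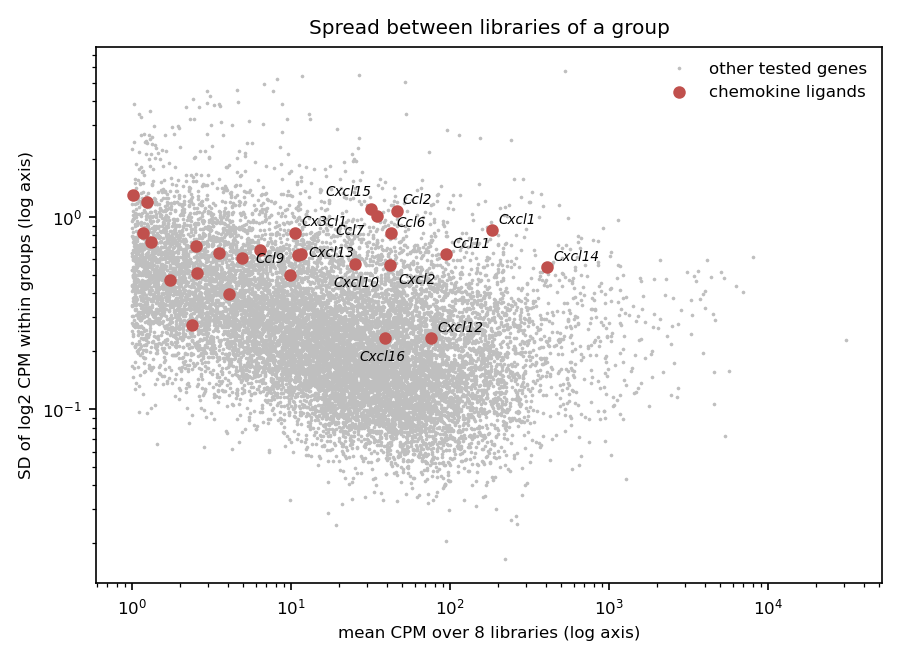
SD of log2 CPM within groups against mean CPM over the 8 libraries, both on log axes, for the other tested genes averaging 1 CPM or more (grey) and for chemokine ligands (red). Named points are the 14 ligands with at least 10 CPM, of which Cxcl12 and Cxcl16 lie at 0.23 and the other 12 between 0.55 and 1.10.

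Among ligands that stroma makes at rest, Cxcl14, a CXC chemokine of fibroblasts and epithelium, had 563, 275, 270.4 and 499 CPM in SmoM2-labelled libraries and 374, 312, 671 and 296 CPM in controls. SmoM2 1, SmoM2 4 and control 3 were high, and the groups overlapped over most of their range. Its log2 fold change was -0.04 with a 95% interval of -0.81 to 0.73 from 4 mice a group. Changes within that interval, in either direction, are not excluded. Cxcl12, which signals through Cxcr4 and retains leukocytes and progenitors near stroma, had 54.3, 76.1, 63.1 and 75.7 CPM in SmoM2-labelled libraries and 78.0, 105, 83.0 and 72.3 CPM in controls. Control 4 lay within the SmoM2-labelled range and the other 3 controls above it. The log2 fold change was -0.33 (interval -0.67 to 0.01, edgeR unadjusted p = 0.0570), and -0.21 without control 2. Cxcl16, which is made as a membrane-anchored protein and is bound by Cxcr6, had 41.2, 38.3, 29.7 and 42.5 CPM in SmoM2-labelled libraries and 39.9, 48.6, 37.2 and 33.0 CPM in controls. The groups overlapped, with SmoM2 3 lowest and control 2 highest, and the log2 fold change was -0.07 (interval -0.41 to 0.28). Some Cxcl16 exons overlap Zmynd15 on the opposite strand, and the counting is not stated to use strand.

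Cxcl1, Ccl2, Ccl7 and Ccl11 had the same 3 lowest libraries, which came from both groups. Cxcl1, which attracts neutrophils through Cxcr2, had 207, 255, 89.005 and 178 CPM in SmoM2-labelled libraries and 83.0, 212, 357 and 89.9 CPM in controls. SmoM2 3, control 1 and control 4 were the low libraries, and the other 5 lay at or above 178 CPM. Ccl2, the main monocyte attractant acting on Ccr2, had 37.7, 65.8, 18.3 and 74.9 CPM in SmoM2-labelled libraries and 21.8, 60.9, 76.9 and 13.1 CPM in controls. Ccl7, another Ccr2 ligand, had 28.7, 53.1, 14.0 and 57.1 CPM in SmoM2-labelled libraries and, in controls, 19.8, 49.3, 44.5 and 10.2 CPM. Ccl11, the eosinophil attractant eotaxin, had 77.0, 119, 65.1 and 197 CPM in SmoM2-labelled libraries and 68.5, 105, 85.5 and 42.5 CPM in controls. The groups overlapped for all 4 genes, with SmoM2 3, control 1 and control 4 lowest each time.

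The log2 fold changes of this quartet were -0.03 for Cxcl1 (interval -1.17 to 1.12), 0.19 for Ccl2 (-1.20 to 1.57), 0.30 for Ccl7 (-0.98 to 1.59) and 0.60 for Ccl11 (-0.28 to 1.48). The direction for Cxcl1 and Ccl2 depended on single libraries. Cxcl1 was at 0.20 without SmoM2 3, 0.037 without control 2 and 0.50 without control 3. Ccl2 was at -0.088 without SmoM2 4, -0.032 without control 1 and -0.11 without control 4, and at 0.62 without control 3. Without SmoM2 4 the value for Ccl11 was 0.21, and that for Ccl7 was 0.01 without control 4. SmoM2 3, control 1 and control 4, picked out after the values were seen, were the lowest libraries for 4 of the 41 ligand genes tested (9.76%), against 6.5% of all genes.

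Ccl2, Ccl7 and Ccl11 are neighbours on mouse chromosome 11 (mm10), from 82035571 to 82037453, from 82045712 to 82047525 and from 82057823 to 82062955, with gaps of 8.26 kb and 10.3 kb. Ccl12 and Ccl8 follow 38.9 kb and a further 11.8 kb along. The low libraries of both were SmoM2 1, control 3 and control 4, of which only control 4 was also low for Ccl2, Ccl7 and Ccl11. Ccl12, a monocyte attractant of mice, was lowest in SmoM2 1 at 0.272 CPM and highest in SmoM2 4 at 3.38 CPM. Ccl8 was lowest in control 4 at 1.59 CPM and highest in SmoM2 4 at 6.54 CPM.

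Some genes of other lists had the same low libraries. In the list of 18 NF-kB responsive genes, 5 had the same 3 lowest libraries (Nfkbia, Relb, Tnfaip2, Bcl3 and Csf1), against 6.5% of all genes. The rest of the list did not, and Nfkbiz, for example, was lowest in SmoM2 4 at 584 CPM. Between the groups 0 of the 18 were called. The list summed to 2900 to 5387 CPM in SmoM2-labelled libraries and 2736 to 5981 CPM in controls. Nfkbia, the inhibitor that NF-kB itself induces, had 415, 543, 312 and 348 CPM in SmoM2-labelled libraries and 298, 546, 814 and 276 CPM in controls. Among the 7 fibroblast markers the same 3 libraries were lowest for Dcn, Lum and Gsn. The list summed to 38144 to 62585 CPM in SmoM2-labelled libraries and 36591 to 51850 CPM in controls. Lum, a small matrix proteoglycan, had 612, 709, 318 and 1078 CPM in SmoM2-labelled libraries and 371, 608, 583 and 239 CPM in controls. The other 4 did not share them. Tcf21, a transcription factor of lung fibroblasts, was highest in control 4 at 270.4 CPM and next in SmoM2 3 at 223 CPM, and Pdgfra was lowest in control 2. Outside these 2 lists the 3 libraries were also lowest for 2 of the 5 B cell markers, 1 of the 10 epithelial markers and 1 platelet gene. The part of NF-kB activity or of fibroblast make-up in the chemokine levels was not tested.

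**Figure D4:**
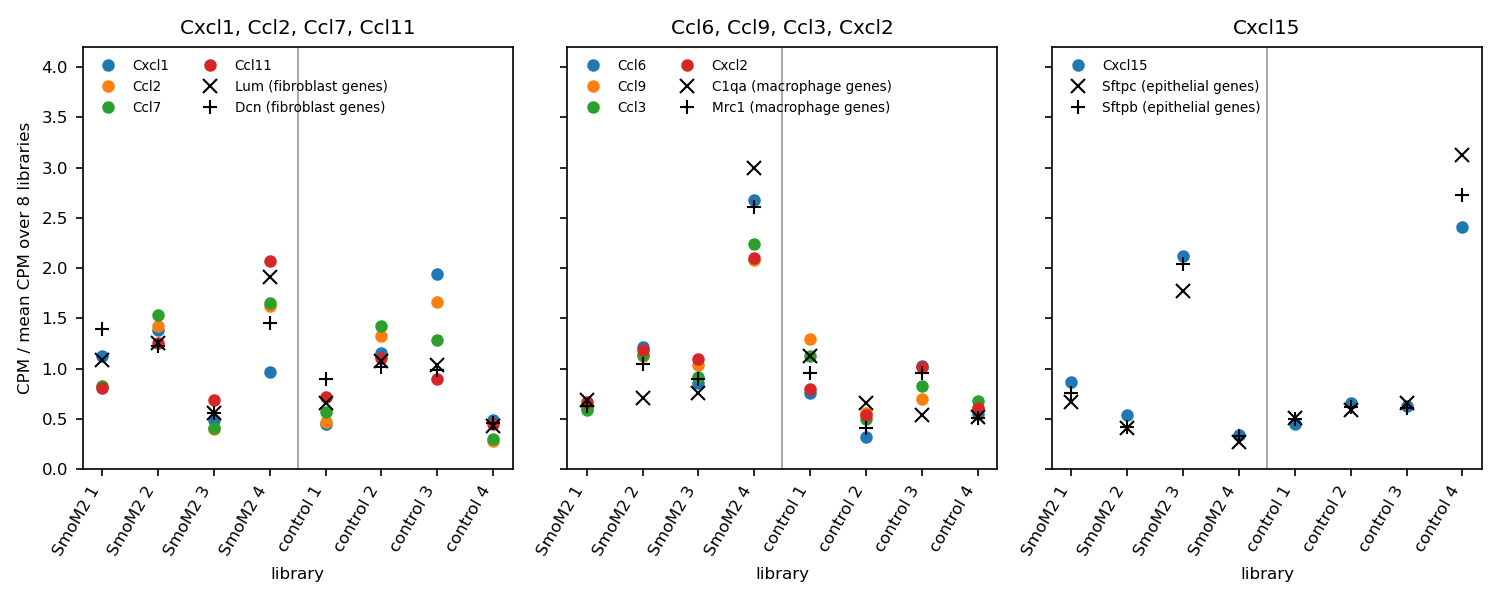
Level of chemokine ligands (coloured points) and of marker genes (black crosses) in each library, as CPM over the gene's mean over 8 libraries, with SmoM2-labelled libraries left of the line and controls right of it. Left, Cxcl1, Ccl2, Ccl7 and Ccl11 are lowest in SmoM2 3, control 1 and control 4, as are Lum and Dcn. Of the 7 fibroblast markers, Pdgfra, Col1a1, Col1a2 and Tcf21, not shown, did not share these low libraries. Middle, Ccl6, Ccl9, Ccl3 and Cxcl2 are highest in SmoM2 4, as are C1qa and Mrc1. Right, Cxcl15, Sftpc and Sftpb are highest in control 4 and SmoM2 3. Of the 10 epithelial markers, Epcam, Krt8, Krt18 and Scgb1a1, not shown, were not highest in control 4.

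Cxcl2, the gene next to Cxcl1 on chromosome 5 at a distance of 10.8 kb and likewise a Cxcr2 ligand, did not share its order of libraries. It had 28.0, 49.9, 46.0 and 88.5 CPM in SmoM2-labelled libraries and 33.6, 22.8, 42.6 and 25.5 CPM in controls, lowest in control 2, where Cxcl1 was at 212 CPM, and highest in SmoM2 4. The log2 fold change was 0.77 (interval -0.00 to 1.55, edgeR unadjusted p = 0.0510), and 0.41 without SmoM2 4. Cxcl3, the third of these neutrophil attractants and far less abundant, had 0.652, 1.90, 1.07 and 3.47 CPM in SmoM2-labelled libraries against 0.539, 0.329, 0.882 and 0.549 CPM in controls, overlapping at SmoM2 1 and control 3. Its log2 fold change was 1.62 (SE 0.54, edgeR unadjusted p = 0.0161, adjusted p = 0.999916). Without SmoM2 4 the value was 1.07. The 10 neutrophil markers summed to 23.4, 168, 85.3 and 158 CPM in SmoM2-labelled libraries and 20.4, 22.7, 73.4 and 29.7 CPM in controls, so SmoM2 2, SmoM2 3, SmoM2 4 and control 3 were the highest libraries both for this list and for Cxcl3. Their part in the Cxcl3 level was not tested. Cxcl5 was at 0 in SmoM2 1 and SmoM2 3, at 0.445 and 0.635 CPM in the other SmoM2-labelled libraries, and at 0.222, 2.71, 0.872 and 0.304 CPM in controls, highest in control 2.

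The promoter windows of Cxcl1 and Cxcl2 are shown because these neighbours share an NF-kB motif and differed in library order, and that of Cxcl10 because it also holds an interferon motif. Windows run from 250 bases before to 50 bases after the RefSeq start (GRCm38.p6), 5′ to 3′ on the gene's strand. They are chr5:90890995-90891294 on the plus strand for Cxcl1, chr5:90903649-90903948 on the plus strand for Cxcl2 and chr5:92348840-92349139 on the minus strand for Cxcl10. Capitals mark matches to the NF-kB consensus, to the interferon-stimulated response element (GAAA, any 2 bases, GAAA) and to AP-1 (TGANTCA), each searched on both strands.
Cxcl1: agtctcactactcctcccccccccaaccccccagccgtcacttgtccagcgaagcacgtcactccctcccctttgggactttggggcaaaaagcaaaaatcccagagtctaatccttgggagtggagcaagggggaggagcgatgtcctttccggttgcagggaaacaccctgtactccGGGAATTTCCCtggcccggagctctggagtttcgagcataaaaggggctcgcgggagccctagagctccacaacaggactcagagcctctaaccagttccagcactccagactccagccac
Cxcl2: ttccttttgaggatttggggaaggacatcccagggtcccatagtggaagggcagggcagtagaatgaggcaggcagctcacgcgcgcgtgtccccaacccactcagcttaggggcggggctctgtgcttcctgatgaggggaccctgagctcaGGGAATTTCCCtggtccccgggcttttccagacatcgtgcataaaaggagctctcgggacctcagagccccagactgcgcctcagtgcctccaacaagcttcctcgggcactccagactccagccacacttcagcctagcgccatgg
Cxcl10: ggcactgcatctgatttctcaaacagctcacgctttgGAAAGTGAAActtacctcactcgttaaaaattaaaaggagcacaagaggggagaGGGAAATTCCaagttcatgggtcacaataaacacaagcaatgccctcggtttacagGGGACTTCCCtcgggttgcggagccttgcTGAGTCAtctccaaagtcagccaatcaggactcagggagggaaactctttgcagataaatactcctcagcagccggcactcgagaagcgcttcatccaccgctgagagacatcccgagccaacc

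In Cxcl1 and Cxcl2 the capitals are the same run, GGGAATTTCCC, which matches the NF-kB consensus in 2 overlapping frames, 71 bases before the start in Cxcl1 and 97 bases before it in Cxcl2. The Cxcl3 window holds the run as well, 73 bases before the start. The Cxcl10 window holds 2 separate NF-kB matches, 1 interferon-stimulated response element and 1 AP-1 match. The windows of Cxcl14 and Ccl19 hold an interferon element as well, 172 and 208 bases before the start. RefSeq windows matched 27 of the 39 symbols, as 33 windows, of which 7 held the NF-kB consensus (21.2%), 3 the interferon element (9.09%) and 7 the AP-1 motif (21.2%). Over all 32841 windows of the same length these shares were 4.51%, 3.44% and 7.81%. Ccl2, Ccl7 and Ccl11 are among the symbols without a window. The windows are not independent, since some belong to the same gene, as for Ccl27b, and Cxcl1, Cxcl2 and Cxcl3 hold the same run. These are matches of letters, not measured binding.

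Cxcl10, which acts on Cxcr3 of T cells and is induced by interferon as well as by NF-kB, had 18.4, 24.6, 22.2 and 15.6 CPM in SmoM2-labelled libraries and 17.3, 43.8, 41.8 and 17.5 CPM in controls. Controls 2 and 3 were high and the other 6 libraries lay between 15.6 and 24.6 CPM. Its log2 fold change was -0.57 (interval -1.35 to 0.20), and it was -0.34 without control 2 and -0.38 without control 3. Some of its exons overlap Art3 on the opposite strand. Irf1, an interferon and NF-kB induced transcription factor, was also highest in controls 2 and 3, at 114 and 130 CPM, whereas 12 of the 16 interferon-stimulated genes, Ifit1 and Isg15 among them, were highest in SmoM2 3. None of the 16 was called between the groups, with 12 log2 fold changes above 0 and 4 below. Cxcl9, the related Cxcr3 ligand, was at 0.506 to 2.17 CPM in SmoM2-labelled libraries and 0.862 to 1.98 CPM in controls. Cxcl11, annotated as a polymorphic pseudogene, had at most 12 units, or about 2 fragments, in any library.

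The CC ligands typical of macrophages were highest in SmoM2 4. Ccl6, a myeloid chemokine of rodents that acts on Ccr1, had 25.8, 51.6, 36.1 and 113 CPM in SmoM2-labelled libraries and 32.2, 13.5, 43.3 and 23.0 CPM in controls. SmoM2 4 stood well above the rest, which overlapped. The log2 fold change was 1.02 (interval -0.12 to 2.16, edgeR unadjusted p = 0.0742), and 0.43 without SmoM2 4. Ccl9, a second such rodent ligand 9.25 kb from Ccl6, had 7.22, 13.0, 11.9 and 24.1 CPM in SmoM2-labelled libraries and 15.0, 6.44, 8.05 and 6.92 CPM in controls, with a log2 fold change of 0.63 that was 0.24 without SmoM2 4.

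Ccl3 and Ccl4, macrophage inflammatory proteins whose genes lie 13.2 kb apart in the same stretch of chromosome 11, reached 14.2 and 9.80 CPM in SmoM2 4. In the other 7 libraries they lay between 3.14 and 7.22 CPM and between 2.91 and 5.95 CPM. Ccl24, an eosinophil attractant, was at 1.83 CPM in SmoM2 4 and at 0.254 to 0.751 CPM elsewhere. SmoM2 4 was the highest library for 13 of the 41 ligand genes tested, (31.7%), against 14.5% of all genes. It was also highest for 13 of the 15 macrophage and monocyte markers, whose summed level was 1684 CPM there and 496 to 776 CPM in the other 7 libraries. The complement gene C1qa was at 80.8 CPM in SmoM2 4 and at 14.0 to 30.5 CPM in the others. All 15 had log2 fold changes above 0, 0 of the 15 were called, none was at 0 in all libraries, and their part in these ligands' levels was not tested. Neutrophil markers were not highest there alone, with a summed level of 168 CPM in SmoM2 2, 158 CPM in SmoM2 4 and 20.4 to 85.3 CPM in the other 6. All 10 had log2 fold changes above 0, with a median of 1.64, and 3 had an unadjusted p under 0.05, but 0 of the 10 were called.

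**Figure D5:**
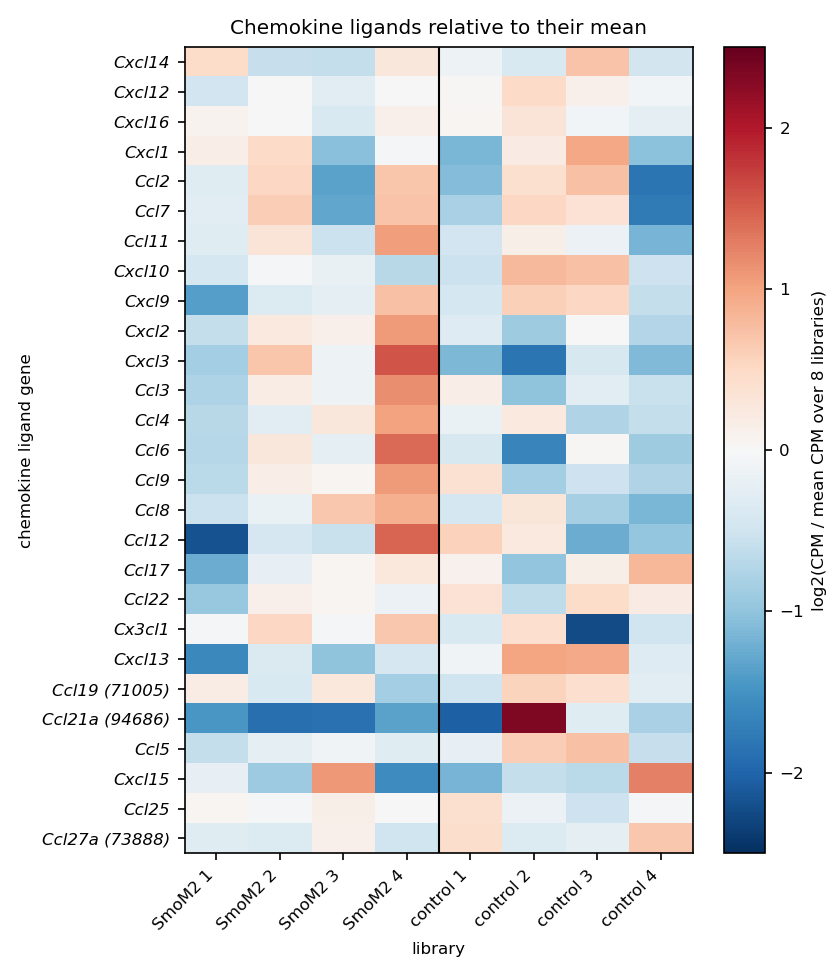
The 27 chemokine ligands averaging 1 CPM or more in each library, as log2 of CPM over the gene's mean over the 8 libraries, with SmoM2-labelled libraries left of the line and controls right of it. The rows from Cxcl2 to Ccl12 are red in SmoM2 4, Cxcl1, Ccl2 and Ccl7 are blue in SmoM2 3, control 1 and control 4, and Ccl21a is red in control 2, at 5.10 CPM. Digits in brackets are the last of the gene identifier where a symbol has several rows.

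Among the ligands that organise lymphoid tissue, Cxcl13 was the member with the smallest p, and the rows of Ccl19 and Ccl21 were low. Cxcl13, which draws B cells through Cxcr5, had 3.63, 8.62, 5.49 and 8.32 CPM in SmoM2-labelled libraries and 10.4, 21.9, 21.4 and 8.85 CPM in controls. Every SmoM2-labelled library lay below every control, but only narrowly at the closest, with SmoM2 2 at 8.62 CPM and control 4 at 8.85 CPM. It averaged 6.51 ± 2.38 CPM in SmoM2-labelled libraries and 15.6 ± 6.98 CPM in controls (SD, n = 4 each). The log2 fold change was -1.26, with an SE of 0.38 and an interval of -2.14 to -0.38. In edgeR the unadjusted p was 0.0102 and the adjusted p 0.999916, and in DESeq2 the adjusted p was 0.164. With each library left out in turn the log2 fold change stayed between -1.46 and -1.06. In the authors' deposited table the normalised means are 655 for SmoM2 and 1565 for control, with a p of 0.0119 and an adjusted p of 1.

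Other genes moved in the direction of Cxcl13. All 6 mesothelial markers had log2 fold changes below 0. In edgeR 5 of the 6 had an unadjusted p under 0.05, against 3.75% of all genes, though 0 of the 6 were called. Their summed level was 81.8 to 160 CPM in SmoM2-labelled libraries and 169 to 406 CPM in controls. All 5 B cell markers had log2 fold changes below 0, and 4 of the 5 were highest in control 2. The list summed to 29.9 to 82.5 CPM in SmoM2-labelled libraries and 15.0 to 111 CPM in controls, and 0 of the 5 were called. Cxcr5, the gene of the Cxcl13 receptor on B cells, had 0.779 to 1.93 CPM in SmoM2-labelled libraries and 1.14 to 3.27 CPM in controls. All 8 blood endothelial markers and 9 of the 10 epithelial markers also had log2 fold changes below 0, whereas all 15 macrophage and monocyte markers were above 0. Control 4, the control with the least Cxcl13, was the highest library for 7 of the 8 endothelial and 6 of the 10 epithelial markers. The part of any of these cell types in the Cxcl13 level was not tested.

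Ccl21 and Ccl19 guide T cells and dendritic cells through Ccr7, and their reads fall on near-identical copies, so the split between rows is uncertain. The 6 Ccl21 rows summed to 1.72, 1.13, 2.71 and 2.45 CPM in SmoM2-labelled libraries and 1.53, 11.8, 3.67 and 3.61 CPM in controls. Control 2 stood apart and the remaining libraries overlapped. The Ccl21a row on chromosome 4 (ENSMUSG00000094686, 42772860 to 42773993) had 0.370, 0.274, 0.278 and 0.398 CPM in SmoM2-labelled libraries and 0.243, 5.10, 0.817 and 0.575 CPM in controls. The log2 fold change of that row was -2.35 (SE 0.88, edgeR unadjusted p = 0.0266), and -0.73 without control 2. The Ccl21c row (ENSMUSG00000096271) had 0.343 to 0.798 CPM in SmoM2-labelled libraries and 0.751 to 1.62 CPM in controls, with a log2 fold change of -0.85 and an unadjusted p of 0.0404. The symbols are those of the authors' table, and the M21 annotation names this row Ccl21b.

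The 2 Ccl19 rows summed to 2.92, 1.98, 3.80 and 2.23 CPM in SmoM2-labelled libraries and 2.71, 5.15, 4.38 and 2.93 CPM in controls, overlapping. The copy on a scaffold outside the assembled chromosomes (ENSMUSG00000094661) was at 0 in SmoM2 1 and SmoM2 2. It was at 0.751 and 0.805 CPM in SmoM2 3 and SmoM2 4, against 0.820 to 1.42 CPM in controls. Control 2 was the highest library for 12 of the 41 ligand genes tested (29.3%), against 12.1% of all genes, and the count includes several of these copies. Lymphatic endothelial markers, a list chosen because that endothelium makes Ccl21, summed to 11.8 to 18.0 CPM in SmoM2-labelled libraries and 6.88 to 30.9 CPM in controls. Control 2, the highest library for Ccl21, held 10.2 CPM of these markers, of which Lyve1, the most abundant of the 5, was lowest there at 3.07 CPM. Mmrn1 was highest in control 2 at 1.09 CPM, and Reln had 2.42 CPM there, next to control 3 at 2.65 CPM. The part of lymphatic RNA in the Ccl21 level was not tested.

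Ccl17 and Ccl22, Ccr4 ligands made by dendritic cells, lie on chromosome 8 on either side of Cx3cl1. Ccl22 had 5.13 to 10.8 CPM in SmoM2-labelled libraries and 6.32 to 13.6 CPM in controls, and Ccl17 1.08 to 3.05 CPM in SmoM2-labelled libraries and 1.28 to 4.53 CPM in controls. SmoM2 1 was the lowest library for both. Cx3cl1, a membrane-bound chemokine read by Cx3cr1 on monocytes, had 10.3, 15.3, 10.3 and 17.0 CPM in SmoM2-labelled libraries and 8.16, 14.2, 2.27 and 7.56 CPM in controls. Control 3 was far below the rest, and the log2 fold change was 0.72 (interval -0.34 to 1.78), 0.41 without control 3 and 1.14 without control 2. Ccl5, a T cell and myeloid product, had 1.16 to 1.63 CPM in SmoM2-labelled libraries and 1.17 to 2.91 CPM in controls.

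Cxcl15, known as lungkine in mice and made by lung epithelium, had 27.7, 17.2, 67.9 and 10.8 CPM in SmoM2-labelled libraries and 14.2, 21.1, 20.1 and 77.1 CPM in controls. SmoM2 3 and control 4 were high, 1 in each group, and the other 6 lay between 10.8 and 27.7 CPM. The surfactant gene Sftpc showed the same 2 high libraries, with 213, 129, 564 and 86.4 CPM in SmoM2-labelled libraries and 162, 187, 207 and 992 CPM in controls. The summed level of the 10 epithelial markers was 954 CPM in SmoM2 3 and 1533 CPM in control 4, and 222 to 427 CPM in the other 6. Of the 10 markers, 6 were highest in control 4, whereas Epcam, Krt8 and Krt18 were highest in control 3. Scgb1a1 went the other way, lowest in SmoM2 3 at 23.5 CPM and next in control 4 at 33.8 CPM. The part of epithelial RNA in the Cxcl15 level was not tested. Its log2 fold change was -0.10 (interval -1.67 to 1.46), and it was 0.74 without control 4 and -0.84 without SmoM2 3.

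Ccl25, a ligand of Ccr9, varied little, at 2.28 to 2.62 CPM in SmoM2-labelled libraries and 1.65 to 3.13 CPM in controls, and its exons overlap those of Elavl1 on the opposite strand. The 4 rows of Ccl27 summed to 3.70 to 5.94 CPM and, in controls, to 3.78 to 7.20 CPM, and the chromosome 4 row overlaps Il11ra1 on the opposite strand. Other mucosal ligands were scarce: Ccl28 was at 0.121 to 1.56 CPM in SmoM2-labelled libraries and 0.144 to 2.39 CPM in controls, and Cxcl17 stayed under 0.5 CPM. Xcl1, the lymphocyte product lymphotactin, had 6 to 36 units in SmoM2-labelled libraries and 3 to 22 units in controls, and it overlaps Gm20743 on the opposite strand. Ccl20 had 12 units in control 4 and 0 in the other 7 libraries, Ccl26 had 2 units in SmoM2 1 and 0 elsewhere, and Ccl1 was at 0 in 3 libraries. A value of 0 allows up to 3 fragments, 0.127 to 0.171 CPM depending on the library, for counting error alone.

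Of the receptor genes, 18 of the 19 named Ccr, Cxcr, Cx3cr or Xcr, Ccrl2 included, passed the expression filter, and 0 were called higher and 0 lower in SmoM2-labelled libraries. Their median log2 fold change was -0.03. Ccrl2, a non-signalling receptor that binds chemerin, was at 44.9 to 57.1 CPM in SmoM2-labelled libraries and 41.8 to 72.2 CPM in controls. Cxcr4, the Cxcl12 receptor, had 10.1 to 17.7 CPM in SmoM2-labelled libraries and 8.01 to 12.4 CPM in controls. The receptors of Cxcl1 and Ccl2 were low, with Cxcr2 at 1.35 to 10.2 CPM in SmoM2-labelled libraries and 0.772 to 6.60 CPM in controls, and Ccr2 at 2.39 to 4.37 CPM in SmoM2-labelled libraries and 1.68 to 5.96 CPM in controls.

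The atypical receptors, which bind chemokines without classical signalling and lower their local concentration, were at different levels. Ackr1 and Ackr2 had 0.243 to 5.18 CPM and 1.68 to 9.79 CPM in SmoM2-labelled libraries, against 0.093 to 1.79 CPM and 2.27 to 6.22 CPM in controls. Ackr3, which takes up Cxcl12, had 358, 317, 71.5 and 363 CPM in SmoM2-labelled libraries and 156, 237, 259.6 and 68.6 CPM in controls. Ackr4, which takes up Ccl19, Ccl21 and Ccl25, had 24.7, 62.5, 0.853 and 93.9 CPM in SmoM2-labelled libraries and 2.17, 3.68, 26.2 and 1.06 CPM in controls. Ackr3 and Ackr4 were lowest in SmoM2 3, control 1 and control 4, the libraries in which Cxcl1, Ccl2, Ccl7 and Ccl11 were lowest. These 3 were the lowest libraries for 6.5% of all genes. All 4 atypical receptors had log2 fold changes above 0, and none was called. For Ackr4 the value was 2.46 with an interval of -0.57 to 5.48. The platelet chemokine Pf4, outside the naming of the other ligands, had 1.63 to 7.21 CPM in SmoM2-labelled libraries and 1.38 to 2.42 CPM in controls, again highest in SmoM2 4.

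Immediate early genes, which tissue digestion is known to raise, were abundant in every library, and the 9 summed to 12975 to 29580 CPM in SmoM2-labelled libraries and 23241 to 33355 CPM in controls. SmoM2 4, at 12975 CPM, was the lowest. None of the 9 was called between the groups. Of the marker lists whose sums are not yet given, the 8 blood endothelial genes summed to 31.3 to 47.5 CPM in SmoM2-labelled libraries and 43.5 to 151 CPM in controls. Their log2 fold changes were below 0 for 8 of 8, and control 4, with the sum of 151 CPM, was the highest library for 7 of the 8. The 10 T and NK cell genes summed to 10.2 to 109 CPM in SmoM2-labelled libraries and 11.1 to 75.2 CPM in controls. The 4 dendritic cell genes summed to 15.3 to 17.1 CPM in SmoM2-labelled libraries and 16.0 to 19.8 CPM in controls, and the platelet genes to 16.6 to 35.6 CPM and, in controls, 15.5 to 35.7 CPM. No gene of these 4 lists was called.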

How the data were processed

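RNA of sorted reporter-positive lung cells was sequenced in 8 libraries. FastQC, HISAT, StringTie, DESeq and the mm10 build are listed, without versions or roles, in the submitters' processing notes. The authors deposited an estimated count per Ensembl gene and library, already a whole number. They also deposited, per the file headers, mean normalised signal per group, the ratio (fold) of the means, its log2 value and p-values. Median-of-ratios scaling gave the deposited means within 5e-10, which fixed the direction as SmoM2 over control. The most frequent count above 0 was 5 units in each library, taken as 1 fragment, an assumption.

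edgeR 4.0.16 (R 4.3.3; TMM, filterByExpr, robust quasi-likelihood fit on group) was run on all genes, with adjusted p under 0.05 as threshold. CPM use TMM sizes, log2 CPM a prior count of 2. DESeq2 1.42.0, limma 3.58.1 and other settings were alternatives. Code was tested on simulated data. Members averaging 10 CPM or more, or called by edgeR, DESeq2 or the authors, are given per library, and the others by range, or by value where they define a subfamily or role. Genes outside the family come from 18 lists of receptors, pathway genes and markers, and some of their genes are not reported here. Members and lists were chosen with earlier results of these data known. Each title names a different animal, and error estimates reflect variation among animals. Promoters came from RefSeq (GRCm38.p6).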

Additional observations from a re-analysis of the deposited data

Results flagged for a closer look

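In 2 of the groups of 4 libraries, among 32 checked by Dixon's test on the CPM of the 14 most abundant ligands, Cxcl3 and the Ccl21a row on chromosome 4, a single library stood far from the others of its group. Control 4 had 77.1 CPM of Cxcl15, where the other 3 controls had 14.2 to 21.1 CPM, and the gap was 0.89 of the group's range. Control 2 had 5.10 CPM of Ccl21a, where the other 3 controls had 0.243 to 0.817 CPM, and the gap was 0.88 of the range. By chance alone about 1 in 20 groups would be picked out this way. Cxcl3 and Ccl21a were added to the check after their values were seen.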

How the results depend on the processing

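The count of chemokine ligands called was 0 with DESeq2, RLE factors, no filter on low counts, counts divided by 5, limma-voom and sex (read from Xist and Y-linked genes) as a covariate, and without any single library. Over all genes DESeq2 called 69, 32 higher and 37 lower, and leaving out 1 library gave 0 to 1, the 1 without SmoM2 4. Ligands with an unadjusted p under 0.05 numbered 3 to 7, and 7 without control 1 or control 4. The share of all genes at that level was worked out only for the main edgeR fit (3.75%), so these counts are not compared. The median within-group SD of the tested ligands, 0.75, was 0.64 for counts divided by 5, where 30 ligands were tested, 0.67 with a prior count of 10, and 0.64 to 0.83 with 1 library left out. Outside the runs that left out a library, 98 of 101 fold changes of named genes kept their direction, and 3 reversed: Cxcl1 was 0.14 with limma-voom, and Cxcl14 was 0.0092 and Cxcl15 0.032 with sex as a covariate. With 1 library left out, Cxcl14 ranged from -0.25 to 0.29, Cxcl1 from -0.27 to 0.50, Ccl2 from -0.11 to 0.62, Cxcl16 from -0.14 to 0.043 and Cxcl15 from -0.84 to 0.74, so their directions were not fixed. Causes of these shifts were not tested. No paired analysis was possible because the labels give 8 different animal numbers. Values under 0.127 CPM rest on fewer than 3 fragments in every library.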
